A study of Homo sapiens with 4 samples.

Results

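PDCD4 is an RNA-binding tumour suppressor protein that restrains translation and is also found in the nucleus. The data examined here are the crosslink sites that fell inside very short introns, meaning introns under 300 nt, in MCF10A cells. All rows of the deposited PDCD4 and IgG site lists were kept, whatever their score, if the listed nucleotide lay on the same strand in an intron under 300 nt of the gene named in its label. For each gene the GENCODE release 44 transcript with the longest coding sequence set the intron boundaries. Of 270283 listed sites, 1695 met this rule. The PDCD4 list held 1222 of them among 158922 sites and the IgG list 473 among 111361. MCF10A is an established, non-transformed breast epithelial line and was wild type in all samples. The cells carried no other allele or treatment that the labels name. RNA was crosslinked to protein with UV light and immunoprecipitated with PDCD4 antibody (2 samples) or isotype control IgG (2 samples) by improved iCLIP, in which reverse transcription tends to stop at the crosslinked nucleotide. The score of a site is its number of unique cDNAs. Each antibody has 1 list that pools its samples, so the spread between the samples of an antibody could not be measured and the lists were not tested against each other. The intervals given throughout are 95% intervals of counting error only.

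Introns are removed from the pre-mRNA by the spliceosome, which reads a 5′ splice site, a branch point, a polypyrimidine tract and a 3′ splice site. In human genes most introns run to kilobases, and very short ones are the exception. They are often rich in G and C, lie in compact gene-dense regions, and are the kind of intron that is most often left in the mature RNA. Annotation records such molecules as transcripts of the type retained intron, in which an exon runs across what is an intron elsewhere. Some short introns also carry a small nucleolar RNA (snoRNA) or a small Cajal body RNA (scaRNA), guides for the modification of other RNAs that are trimmed out of the intron after splicing. PDCD4 is best known for binding the RNA helicase eIF4A, whose genes EIF4A1 and EIF4A2 are snoRNA hosts.

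The introns with the most cDNAs show the kinds of sequence that make up the set. They are given on the transcribed strand from the first to the last intron nucleotide (GRCh38). Capitals mark the PDCD4 sites in the sequences of the first 2 sets, where IgG sites stay in lower case, and the IgG sites in the last set. SYT8 intron 5 (chr11:1836285-1836424, + strand) and intron 4 (chr11:1835985-1836125, + strand) are shown because they held more PDCD4 cDNAs than any other short intron. AGRN intron 14 (chr1:1045524-1045732, + strand) and PLXNA3 intron 10 (chrX:154464869-154465017, + strand) stand for GC-rich introns of large adhesion and guidance genes, and nearly all their sites were at a C or a T.
SYT8 intron 5: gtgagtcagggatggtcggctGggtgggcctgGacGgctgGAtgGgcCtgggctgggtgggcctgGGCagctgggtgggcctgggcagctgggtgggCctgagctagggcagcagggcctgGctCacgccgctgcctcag
SYT8 intron 4: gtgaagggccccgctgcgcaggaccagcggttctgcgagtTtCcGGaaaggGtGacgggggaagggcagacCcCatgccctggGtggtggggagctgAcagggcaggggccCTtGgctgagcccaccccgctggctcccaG
AGRN intron 14: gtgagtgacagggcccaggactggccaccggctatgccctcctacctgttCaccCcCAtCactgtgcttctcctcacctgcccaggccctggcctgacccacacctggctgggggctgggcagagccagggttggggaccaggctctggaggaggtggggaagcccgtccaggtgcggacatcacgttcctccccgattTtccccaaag
PLXNA3 intron 10: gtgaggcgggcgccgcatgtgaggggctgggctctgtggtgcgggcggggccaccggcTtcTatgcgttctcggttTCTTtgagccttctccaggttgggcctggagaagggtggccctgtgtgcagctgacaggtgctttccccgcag
The next set shows introns that carry a small RNA. EIF4A1 intron 9 (chr17:7577917-7578164, + strand) holds SNORA67, RPL4 intron 6 (chr15:66501106-66501374, − strand) SNORD18C and HSPA8 intron 6 (chr11:123058831-123059058, − strand) SNORD14D. In all 3 the capitals again mark PDCD4 sites only.
EIF4A1 intron 9: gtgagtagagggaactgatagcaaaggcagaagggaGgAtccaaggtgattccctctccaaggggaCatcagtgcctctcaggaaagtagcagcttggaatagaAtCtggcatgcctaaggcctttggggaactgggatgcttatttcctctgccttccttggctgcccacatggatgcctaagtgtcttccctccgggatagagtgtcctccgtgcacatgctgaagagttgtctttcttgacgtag
RPL4 intron 6: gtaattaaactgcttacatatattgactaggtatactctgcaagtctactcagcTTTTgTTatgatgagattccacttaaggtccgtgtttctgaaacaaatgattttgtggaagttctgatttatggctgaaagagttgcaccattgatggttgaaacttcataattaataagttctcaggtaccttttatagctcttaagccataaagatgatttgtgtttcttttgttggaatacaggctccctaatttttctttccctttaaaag
HSPA8 intron 6: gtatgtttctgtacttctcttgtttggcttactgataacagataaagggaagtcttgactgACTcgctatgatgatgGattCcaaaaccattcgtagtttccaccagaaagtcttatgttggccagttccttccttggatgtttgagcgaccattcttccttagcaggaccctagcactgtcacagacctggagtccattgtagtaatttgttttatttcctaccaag
CHD4 intron 29 (chr12:6581389-6581648, − strand), which holds SCARNA11, and CD46 intron 7 (chr1:207767652-207767778, + strand) are shown with only the IgG sites in capitals, since they were among the leading introns of the IgG list. All of these introns lie between coding exons.
CHD4 intron 29: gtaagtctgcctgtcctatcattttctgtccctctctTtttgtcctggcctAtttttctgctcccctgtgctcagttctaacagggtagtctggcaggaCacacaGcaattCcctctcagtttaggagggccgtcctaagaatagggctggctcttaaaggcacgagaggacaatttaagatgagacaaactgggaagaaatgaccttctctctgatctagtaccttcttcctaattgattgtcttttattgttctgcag
CD46 intron 7: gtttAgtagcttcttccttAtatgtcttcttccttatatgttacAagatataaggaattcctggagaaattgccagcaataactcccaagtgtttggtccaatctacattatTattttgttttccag

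Sites in very short introns made up 0.769% (0.727% to 0.813%, exact binomial interval) of the PDCD4 list and 0.425% (0.387% to 0.465%) of the IgG list. The log2 ratio of these shares was 0.86 (0.70 to 1.01). Among intronic sites of the same transcripts the shares were 1.51% of 81024 PDCD4 sites and 0.653% of 72403 IgG sites, a log2 ratio of 1.21 (1.05 to 1.36). The IgG crosslink positions had been subtracted from the PDCD4 samples before peaks were computed, and 1 position of the set was listed in both files. The 1222 PDCD4 sites carried 3597 cDNAs in 996 introns of 759 genes. In the IgG list, 473 sites carried 1298 cDNAs in 436 introns of 386 genes. Most introns had 1 site only, namely 857 with a PDCD4 site and 407 with an IgG site, and the most sites in 1 intron were 14 (PDCD4) and 5 (IgG). The mean score was 2.94 in the PDCD4 set and 2.74 in the IgG set, against 2.58 and 2.48 over the whole lists. The highest score was 16 in the PDCD4 set and 6 in the IgG set. Nearly all sites lay in introns between coding exons (97.1% and 95.3%), and the median intron length was 197 nt and 195 nt. The genes with a site in both lists were 19.6% of the PDCD4 genes and 38.6% of the IgG genes. The lists shared 61 introns, 6.12% of the PDCD4 introns and 14.0% of the IgG introns. Of all short introns of labelled genes, counted per gene, 4.37% had a PDCD4 site and 1.91% an IgG site. Of the 6444 labelled genes with a short intron, 759 had a PDCD4 site and 386 an IgG site. Both overlaps were thus above the shares over all short introns.

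Per kb of sequence, PDCD4 sites were denser in short introns than in long ones, and this held more weakly for IgG. Over the 11920 labelled genes with a coding sequence, the PDCD4 list had 0.345 sites per kb in introns under 300 nt, 0.282 in introns from 300 to under 1000 nt, here called mid-length, and 0.100 in introns of 1000 nt or more. The corresponding IgG densities were 0.133, 0.135 and 0.0931. A site in introns of overlapping genes is counted for each gene here. The log2 ratio of the densities in introns under 300 nt and of 1000 nt or more reached 1.78 (1.70 to 1.86) in the PDCD4 list, compared with 0.52 (0.39 to 0.65) in the IgG list. Restricting this to the 6010 genes that have introns of both kinds gave 1.34 (1.25 to 1.42) and 0.23 (0.09 to 0.36). Against mid-length introns over all labelled genes the PDCD4 ratio was 0.29 (0.20 to 0.38), above 0, and the IgG ratio -0.02 (-0.16 to 0.12). In the 6010 genes above the PDCD4 ratio was 0.06 (-0.03 to 0.16), the IgG ratio -0.13 (-0.28 to 0.02), and both of these intervals include 0. Coding exons were denser still, at 1.42 PDCD4 sites and 0.458 IgG sites per kb. Per listed site, the log2 ratio of PDCD4 over IgG was 0.86 (0.71 to 1.01) in introns under 300 nt, 0.55 (0.48 to 0.62) in mid-length introns and -0.41 (-0.42 to -0.39) at 1000 nt or more. In coding exons it was 1.12 (1.08 to 1.15). RNA abundance was not analysed here, so the amount of intron-containing RNA and the crosslinking per molecule cannot be told apart.

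**Figure D1:**
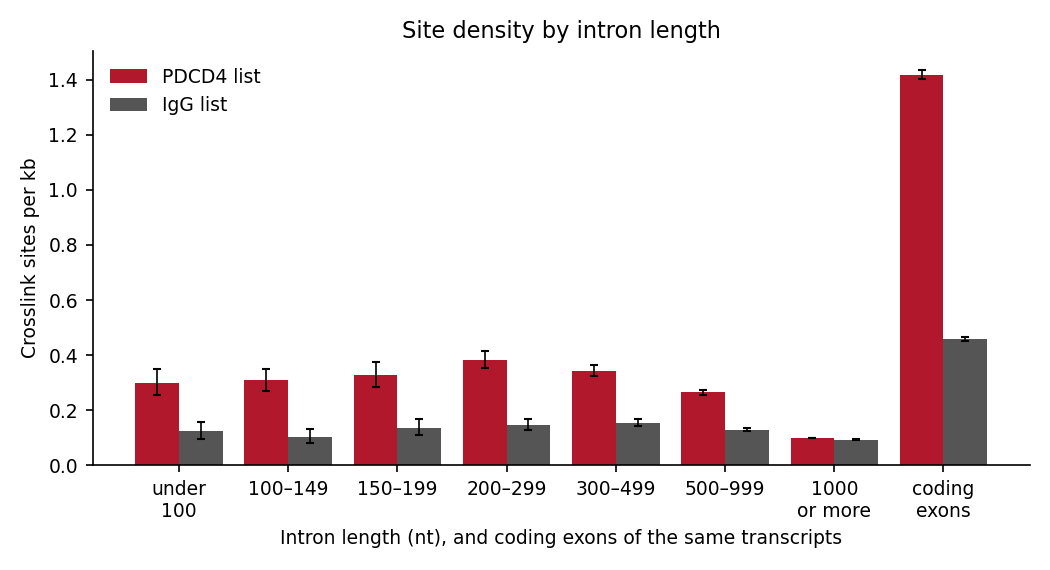
Crosslink sites per kb (y axis) in introns grouped by length in nt and in coding exons of the same transcripts (x axis), for the PDCD4 list and the IgG list. Bars are pooled lists without replicates and error lines are 95% intervals of the site counts. PDCD4 bars run from 0.300 sites per kb under 100 nt to 0.384 in the longest class under 300 nt and drop to 0.100 at 1000 nt or more, while IgG bars stay between 0.0931 and 0.155 across introns.

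Median GC content was higher for the introns with a PDCD4 site, though the intervals of the lists overlapped. Introns under 300 nt with a PDCD4 site had a median GC content of 59.7% (58.7% to 60.2%, n = 996 introns), and those with an IgG site 57.2% (55.4% to 58.9%, n = 436). All 22427 such introns of the labelled genes had a median of 57.7%. The lists differed most at the AT-rich end. Introns under 40% GC made up 12.9% of the introns with a PDCD4 site and 22.5% of those with an IgG site. Among introns under 40% GC, 2.64% (2.21% to 3.13%) had a PDCD4 site, against 5.31% (4.73% to 5.94%) of those with 50% to 60% GC and 4.07% (3.30% to 4.95%) of those at 70% or more. The IgG list had a site in 2.02%, 2.05% and 1.50% of the same classes, with intervals that overlapped throughout. Within genes, and without matching for intron length, introns with a site were lower in GC in both lists. For PDCD4 this is the reverse of the comparison with all short introns. Short introns of the same genes that had no site had a median of 61.4% for PDCD4 genes and 60.7% for IgG genes. Within 687 genes that had short introns of both kinds, introns with a PDCD4 site differed from the others by a median of -1.11 GC points (-1.47 to -0.73), and were the higher ones in 40.3% of the genes. In the IgG list the same difference was -1.06 points (-1.46 to -0.23) over 347 genes. Longer introns had a PDCD4 site more often, at 2.34% under 100 nt and 7.54% in the longest class under 300 nt. All introns of these classes had median GC contents of 61.4% and 55.2%. Those with a PDCD4 site had 64.1% and 58.0%, and those with an IgG site 61.1% and 55.1%. Whether length accounts for the within-gene differences was not tested. In mid-length introns the medians were 52.9% (PDCD4), 48.5% (IgG) and 46.2% (all).

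**Figure D2:**
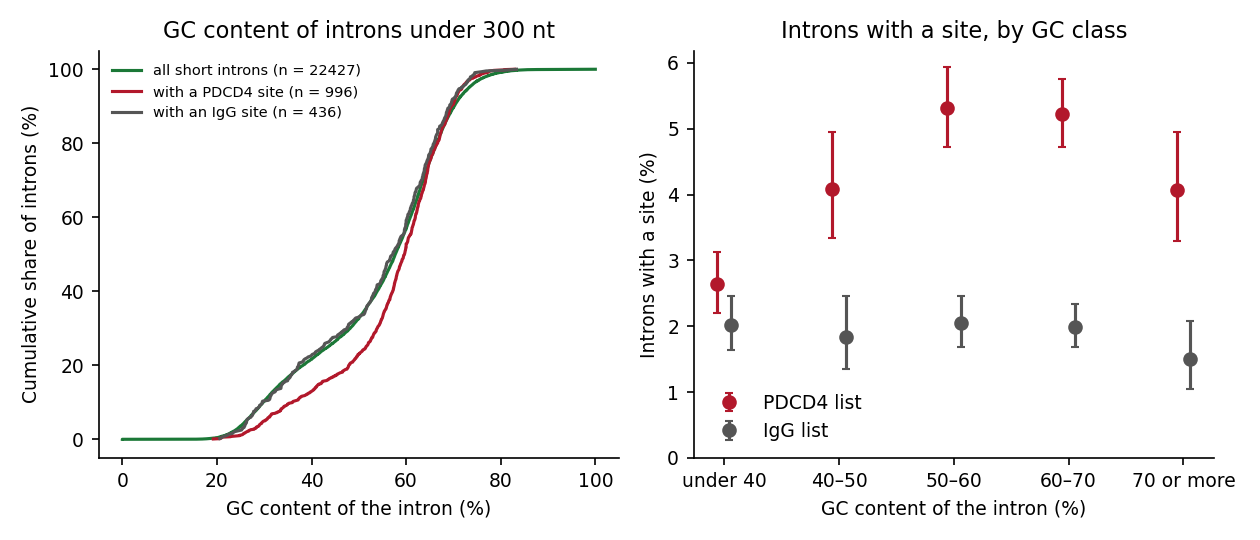
Left, cumulative share of introns under 300 nt (y axis, %) by GC content (x axis, %) for all 22427 introns of labelled genes, the 996 with a PDCD4 site and the 436 with an IgG site. Right, share of introns with a site (y axis, %, exact 95% intervals) by GC class, where the PDCD4 points rise from 2.64% under 40% GC to 5.31% at 50% to 60% and the IgG points stay between 1.50% and 2.05%.

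Retained-intron exons were next set against the sites. A site counted when an exon of any GENCODE transcript of the type retained intron covered it on the same strand. This was so for 474 of 1222 PDCD4 sites (38.8%, 36.0% to 41.6%) and 150 of 473 IgG sites (31.7%, 27.5% to 36.1%), a log2 ratio of 0.29 (0.03 to 0.56). SYT8, described below, weighed on this comparison. Without its sites the PDCD4 share was 37.5% and the log2 ratio 0.24 (-0.02 to 0.51), an interval that includes 0. Both lists lay above the annotation itself. In genes with a site, 24.8% (PDCD4) and 25.1% (IgG) of short-intron nucleotides were covered by a retained-intron exon. A retained-intron exon spanned 31.8% (28.9% to 34.8%) of the introns with a PDCD4 site, but 19.6% (18.5% to 20.7%) of the other short introns of these genes. For IgG these shares were 28.2% (24.0% to 32.7%) and 20.8% (19.3% to 22.3%). By GC content of the intron, the overlap was 41.5% (35.7% to 47.5%) of PDCD4 sites under 50% GC, 37.0% (31.8% to 42.4%) at 50% to 60% and 38.5% (34.6% to 42.5%) at 60% or more. The IgG shares were 32.7%, 29.9% and 32.0%. Of the nucleotides of all short introns in these classes, 17.3%, 23.8% and 23.3% lay in a retained-intron exon, so the distance from the annotation was widest in the AT-rich class. The overlap was also lower in longer introns in both lists, at 31.1% and 25.6% in mid-length introns and 5.87% and 3.79% in introns of 1000 nt or more. How much of these longer introns is covered by retained-intron exons was not computed, so this fall cannot be set against the annotation. By cDNAs, 39.7% of the PDCD4 set and 32.8% of the IgG set lay in such exons. They belonged to 300 of 759 PDCD4 genes and 130 of 386 IgG genes. The remaining sites were mostly outside every annotated exon: 54.7% of the PDCD4 set and 60.5% of the IgG set lay in no exon of any transcript. These sites alone still made up a larger part of the PDCD4 list, with a log2 ratio per listed site of 0.71 (0.51 to 0.91), against 1.15 (0.88 to 1.41) for sites in retained-intron exons.

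**Figure D3:**
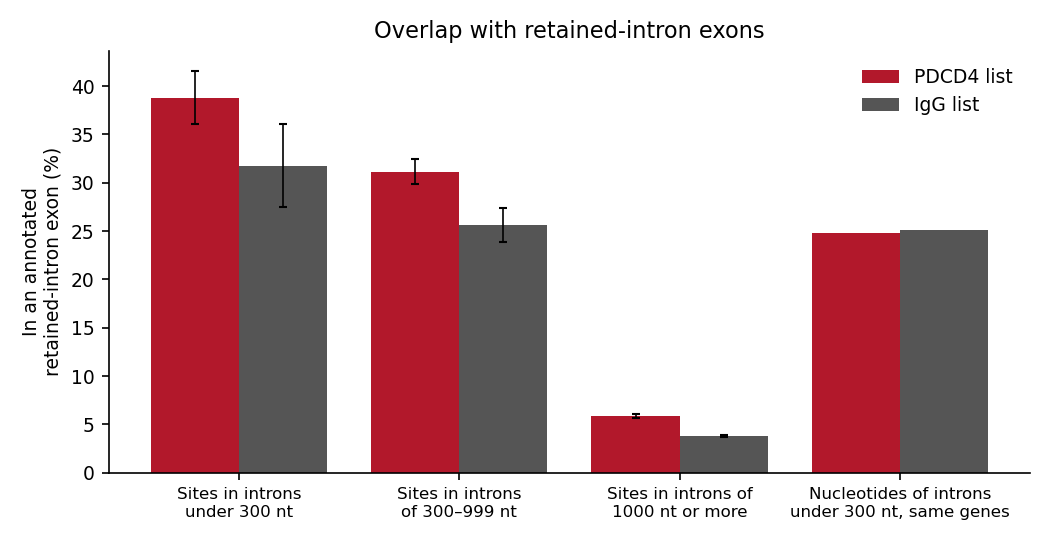
Share in an annotated retained-intron exon (y axis, %, exact 95% intervals) for sites in introns of 3 length classes and, at the right, for all nucleotides of introns under 300 nt in the genes that have a site (no interval). The shares in introns under 300 nt were 38.8% (PDCD4) and 31.7% (IgG), both above the 24.8% and 25.1% of nucleotides. The share of nucleotides was not computed for longer introns.

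Along the intron, both lists had their highest density next to the 3′ splice site. In the last 20 nt the PDCD4 list had 10.9 sites (9.49 to 12.4) per 1000 intron positions, against 5.67 (4.68 to 6.82) in nt 21 to 40 from that end. The IgG densities were 8.60 (6.77 to 10.8) and 4.36 (3.08 to 5.98). The IgG value of the last 20 nt was within counting error of other windows, such as 7.40 (5.70 to 9.46) at nt 61 to 80 from the 5′ end. The first 20 nt held 4.37 PDCD4 sites and 5.50 IgG sites per 1000 positions. A further PDCD4 maximum of 9.39 (8.09 to 10.8) at nt 41 to 60 from the 5′ end, where the IgG density was 5.50 (4.06 to 7.30), was within counting error of the 3′ value. Part of it came from clusters of nearby sites in single introns. Examples are SYT8 intron 4 at nt 41 to 54, AGRN intron 14 at nt 51 to 60 and RPL4 intron 6 at nt 55 to 60. Whether the maximum holds without such clusters was not tested. Over 30 nt the log2 ratio of the 3′ end over the 5′ end came to 0.80 (0.52 to 1.08) in the PDCD4 list and 0.27 (-0.15 to 0.69) in the IgG list. Against the stretch more than 30 nt from either end, the last 30 nt were denser by 0.66 (0.46 to 0.85) and 0.59 (0.26 to 0.92) on the log2 scale. Within the last 20 nt the sites gathered at the splice site itself. The last intron nucleotide held 36 PDCD4 sites (118 cDNAs) and 9 from IgG (31 cDNAs), and the third nucleotide from the end, just before the terminal AG, held 36 and 12. If the lists follow the usual iCount convention, which the files do not state, the listed nucleotide precedes the first base of the cDNA. A site at the last intron nucleotide would then stand for cDNAs that start at the first base of the next exon, in spliced or unspliced RNA. The leading examples, picked after their values were seen, were PLEC intron 31 with a score of 8 and HSP90AB1 intron 5 with a score of 7. Leaving these nucleotides out, the log2 ratio of nt 2 to 30 from the end over the middle stretch came to 0.51 (0.30 to 0.72) and 0.50 (0.16 to 0.84).

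**Figure D4:**
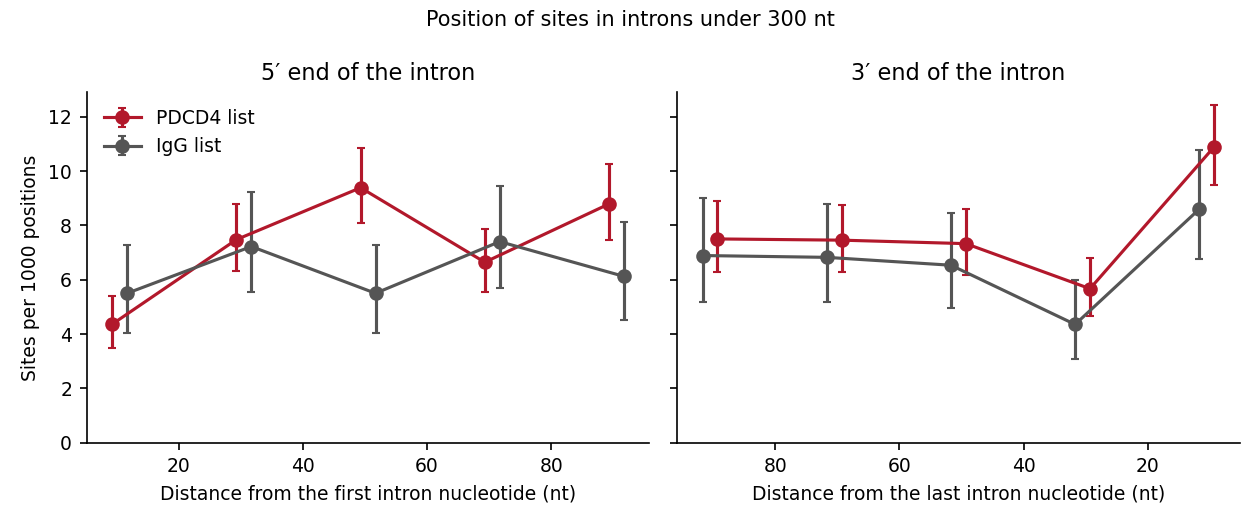
Sites per 1000 available intron positions (y axis, with 95% intervals of the counts) in windows of 20 nt from the first intron nucleotide (left) and from the last (right), x axes in nt. The highest point of each list is the window next to the 3′ splice site, 10.9 for PDCD4 and 8.60 for IgG.

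The crosslinked base also differed. T, which UV light crosslinks well as uridine in RNA, was at 32.6% (29.9% to 35.3%) of the PDCD4 sites and 39.7% (35.3% to 44.3%) of the IgG sites, while it made up 25.0% and 26.8% of the bases of these introns. C was at 34.2% and 30.4%, G at 22.3% (20.0% to 24.7%) and 16.9% (13.6% to 20.6%), and A at 11.0% and 12.9%. In introns of 1000 nt or more T was at 50.6% of PDCD4 sites and 53.8% of IgG sites. The intron ends were ordinary: GT-AG ends were found in 98.6% of introns with a PDCD4 site, 98.9% of those with an IgG site and 99.0% of all short introns.

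SYT8, a member of the synaptotagmin family of membrane-trafficking proteins, led the PDCD4 set by a wide margin. It and the other leading PDCD4 genes below were named for having the most PDCD4 cDNAs in short introns, so their ratios and folds over IgG are drawn from the values that chose them and are given as a description only. Its 6 short introns (ENSG00000149043, chromosome 11) held 34 PDCD4 sites, with 136 cDNAs in all. IgG had 2 sites there, with 6 cDNAs. The log2 ratio per listed cDNA was 3.93 (2.76 to 5.11). Per-gene intervals, here and below, treat each cDNA as independent. Many cDNAs share a site, so these intervals are too narrow. Intron 5 held 13 PDCD4 sites with 61 cDNAs and 1 IgG site with 3, and intron 4 held 14 PDCD4 sites with 54 cDNAs and no IgG site. Intron 7 had 5 PDCD4 sites with 16 cDNAs, intron 6 had 2 with 5 cDNAs, and introns 2 and 8 had none. The highest scores of the whole set were in intron 5, 16 at nt 41 and 15 at nt 33, followed by 12 at nt 74 of intron 4. Both of the highest sites were at a G. They lie between the first and second of 4 exact copies of GCTGGGTGGGCCT in intron 5, which start at nt 19, 52, 70 and 88. Between these 2 copies lies a near copy that differs at 1 base, the A at nt 42. The site at nt 41 is inside the near copy. The exact word, the most frequent run of 13 bases in the intron, was found on the transcribed strand of 1 of the 22427 short introns and on the other strand of 4. Exons and introns of SYT8 were both covered. The PDCD4 list had 46.2 sites per kb of its short introns and 28.3 per kb of its coding sequence, where 34 sites held 119 cDNAs. No IgG site lay in its coding sequence. Retained-intron exons covered 29 of the 34 PDCD4 sites, and 5 of the 6 short introns are spanned by one in the annotation, intron 7 being the exception.

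**Figure D5:**
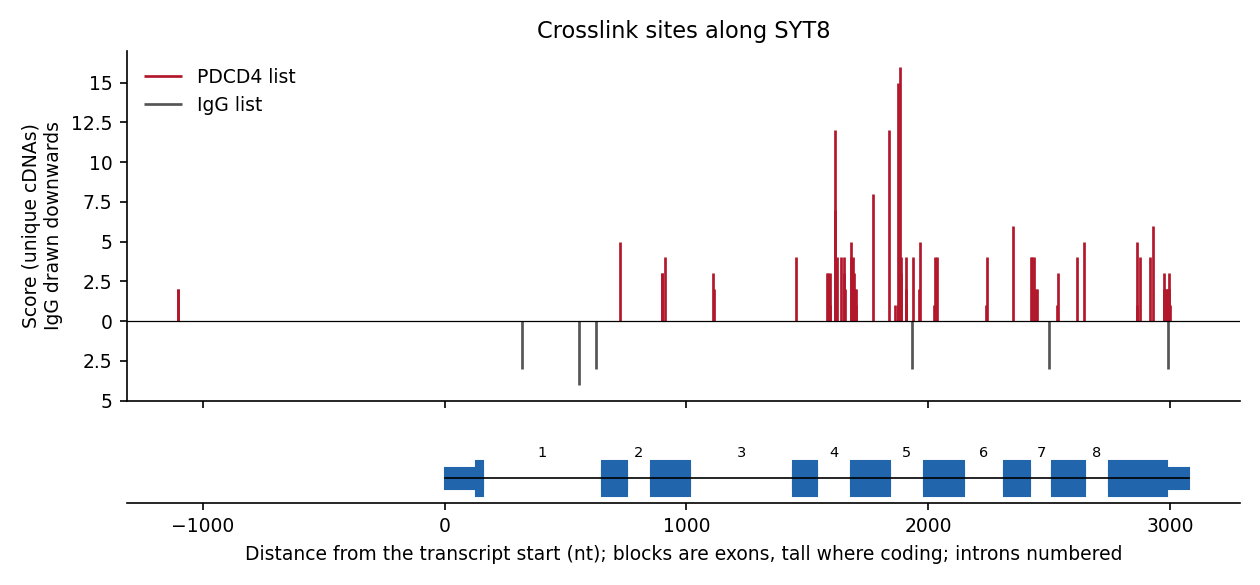
Score in unique cDNAs (y axis, IgG drawn downwards) of every site labelled SYT8 against the distance in nt from the start of the chosen transcript (x axis), above its exons (blocks) and numbered introns. PDCD4 sites run through introns 4 and 5 and the exons around them, with the highest scores of 16 and 15 in intron 5, while no IgG site is higher than 4.

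The other leading genes are given by what they encode, first those outside translation and the ribosome. LAMA5, a laminin chain of the basement membrane with 55 short introns, had 22 PDCD4 sites (67 cDNAs) in 14 introns and 6 IgG sites (19 cDNAs) in 5, a log2 ratio per listed cDNA of 1.25 (0.52 to 1.99). AGRN, the heparan sulfate proteoglycan agrin, had 10 PDCD4 sites (31 cDNAs) and no IgG site. With IgG set to a floor of 3 cDNAs this is 6.97-fold. Such a fold depends on the floor and is not a lower limit. Of the 10 PDCD4 sites in AGRN, 6 with 19 cDNAs were in intron 14. The semaphorin receptor PLXNB1 had 8 PDCD4 sites (28 cDNAs) spread over 8 introns and no IgG site (6.30-fold at the same floor). PLXNA3, of the same receptor family, had 8 sites (25 cDNAs) against 1 IgG site (2 cDNAs), and 6 of the 8 were in intron 10, at a run of T and C. In these 3 genes the PDCD4 sites stood almost alone. FLNA, which crosslinks actin filaments, had 7 PDCD4 sites (24 cDNAs) in 4 of 35 short introns and no IgG site (5.40-fold at that floor). PKD1, the large membrane protein polycystin-1, had 6 sites (19 cDNAs) against 1 (4 cDNAs), a log2 ratio by cDNAs of 1.68 (0.12 to 3.24). With so few sites, an interval above 0 is not read as a difference. Of the 6 PKD1 sites, 1 is followed by 30 nt that also occur elsewhere in the genome. ACADVL, a mitochondrial enzyme of fatty acid oxidation, had 7 sites (22 cDNAs) against 2 (4 cDNAs). The hair keratin gene KRT81 was close to even, with 8 PDCD4 sites (20 cDNAs) and 4 IgG sites (12 cDNAs), a log2 ratio of 0.17 (-0.86 to 1.20), and 2 of its PDCD4 sites have a second match in the genome. In its coding sequence the ratio was 1.50 (0.97 to 2.04). TMEM259 intron 4, the only one of the 10 leading PDCD4 introns outside the 15 leading genes, had 6 PDCD4 sites (19 cDNAs) and 1 IgG site (2 cDNAs). For SYT8, EIF4A2 and EIF4A1 the PDCD4 density was higher in short introns than in coding sequence. For the other 12 of the 15 leading PDCD4 genes it was lower, as in FLNA with 1.80 and 16.6 sites per kb. The 15 genes together held 12.3% of the PDCD4 sites and 14.3% of the cDNAs.

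The IgG set was led by LAMA5, EIF4A2, CHD4, ADAM15, KRT81 and CPNE7, which together held 27 sites (5.71%) and 87 cDNAs (6.70%). They were named for their IgG cDNAs in short introns, which favours low ratios, and these too are a description only. CHD4, a chromatin remodeller, had 5 IgG sites (16 cDNAs) and 2 PDCD4 sites (9 cDNAs), all in intron 29, a log2 ratio per listed cDNA of -1.40 (-2.58 to -0.22). This interval counts cDNAs of a few sites as independent, so its lying below 0 is not read as a difference. In the coding sequence of CHD4, which was not used to choose it, the ratio was 1.75 (1.16 to 2.35). The metalloprotease gene ADAM15 had 4 IgG sites (13 cDNAs) and 3 PDCD4 sites (10 cDNAs), and the 3 IgG sites of intron 21 faced none in the PDCD4 list. CPNE7, a copine, had 3 IgG sites (11 cDNAs) and 2 PDCD4 sites (6 cDNAs). In CD46, which encodes a complement regulator, intron 7 held 4 IgG sites (9 cDNAs) and no PDCD4 site. CHD4 intron 29, ADAM15 intron 21 and CD46 intron 7 had no score above 5 in the IgG list. In LAMA5, intron 52 held an IgG site with a score of 6.

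Translation factor and ribosomal protein genes stood out for a feature that was noticed after the values were seen: several of their introns carry a small RNA. A snoRNA or scaRNA lies in 34 of the 22427 short introns. Of these 34, 18 had a PDCD4 site (52.9%, 35.1% to 70.2%) and 14 an IgG site (41.2%, 24.6% to 59.3%), against 4.37% and 1.88% of the other short introns. They held 51 PDCD4 sites and 21 IgG sites, 4.17% and 4.44% of each set, with overlapping intervals (3.12% to 5.45% and 2.77% to 6.71%). The same introns held 4 PDCD4 sites and 1 IgG site more whose label leaves out the host gene, and these are not in the set. Inside the small RNA lay 28 PDCD4 and 12 IgG sites. A further 21 PDCD4 sites (88 cDNAs) lay in the 5 nt just before its first nucleotide, next to 12 of the small RNAs. For IgG this was so of 5 sites (13 cDNAs). The nucleotide directly before the small RNA held 6 PDCD4 sites (27 cDNAs) and 1 IgG site (3 cDNAs), which under that same convention would be cDNAs that start at the small RNA's own 5′ end. HSPA8 intron 6 had its score of 10 at the nucleotide before SNORD14D, and RPL7A intron 4 its score of 10 at the nucleotide before SNORD36B. In EIF4A1 intron 9 the PDCD4 sites were at nt 37, 39, 67, 105 and 107, with scores of 6, 6, 3, 7 and 2, and SNORA67 runs from nt 39 to 175. The site at nt 67 is labelled with the readthrough gene SENP3-EIF4A1 alone and was counted to it, as was the 1 IgG site of this intron, at nt 69. In RPL4 intron 6 the sites formed a run at nt 55 to 61 around the start of SNORD18C at nt 57, visible in the sequence as a row of capital T. In CHD4 intron 29, 4 of the 5 IgG sites were inside SCARNA11 (nt 40 to 175) and the fifth at nt 38. Both PDCD4 sites lay before it, at nt 36 and 37. CHD4 was named for its IgG cDNAs, and IgG positions had been subtracted from the PDCD4 samples. The subtraction thus worked against PDCD4 sites at those positions in advance. It was not complete, since 1 position of the set, in RPL4 intron 6, is in both lists. The difference in CHD4 is a description only.

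By gene, EIF4A2 had 9 PDCD4 sites (30 cDNAs) and 5 IgG sites (16 cDNAs), a log2 ratio of 0.34 (-0.54 to 1.21), all of them in retained-intron exons, and 2 of its PDCD4 sites have a second match in the genome. EIF4A1 had 4 (21 cDNAs) against 1 (4 cDNAs), and EIF4G1, the scaffold of the cap-binding complex, 7 (20 cDNAs) against 2 (6 cDNAs). The ribosomal protein gene RPL7A had 6 PDCD4 sites (26 cDNAs) and no IgG site (5.85-fold with IgG at a floor of 3 cDNAs). RPL4 had 7 (22 cDNAs) against 1 (2 cDNAs). HSPA8, the constitutive Hsc70 chaperone, had 7 (23 cDNAs) against 1 (3 cDNAs).

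Gene families were then compared by their number of sites per listed site, beside the ratio of 0.86 over all genes. Ribosomal protein genes had 36 PDCD4 sites in 15 of the 66 genes with a short intron and 8 IgG sites in 7, a log2 ratio of 1.66 (0.55 to 2.76). Over all families and other genes, 759 of 6444 genes with a short intron had a PDCD4 site and 386 an IgG site. The share of genes with a site was thus higher among ribosomal protein genes in both lists. Plexins had 23 and 3 sites (2.43, 0.69 to 4.16), laminins 25 and 7 (1.32, 0.11 to 2.53), and filamins, spectrins and plakins 15 and 2 (2.39, 0.27 to 4.52). The intervals of these 4 families lay above 0, but LAMA5 alone held 22 and 6 of the laminin sites. Among the plakins PLEC, the cytolinker plectin, had 4 PDCD4 sites and 1 IgG site in its short introns, against 868 and 25 in its coding sequence. Integrins had 8 PDCD4 sites, 4 of them in ITGA10, and 1 IgG site (2.49, -0.51 to 5.49). Collagens, with 236 short introns, had 5 PDCD4 sites, 4 of them in COL7A1, and no IgG site. Actins, actinins and myosins had 10 and 3 sites, of which ACTG1 held 6 and 2. The families that follow were closer to even. Translation factors had 29 and 12 sites (0.76, -0.21 to 1.73), solute carriers 24 and 12 (0.49, -0.51 to 1.49), hnRNP genes 7 and 3 and keratins 9 and 5. SR splicing factors, 7 of which have a short intron, had no site in either list. They have only 13 short introns, and 4.37% (PDCD4) and 1.91% (IgG) of all short introns had a site. With so few introns the absence is not read as particular to this family. Every family interval overlapped the interval over all genes (0.70 to 1.01), for the 10 families where a ratio could be formed.

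As checks on the material, the markers of basal breast epithelium given here had sites over the whole lists. ITGB4 had 439 PDCD4 cDNAs and 118 IgG cDNAs, KRT5 352 and 74, KRT6A 165 and 40, KRT17 37 and 18, and TP63 28 and 15. EGFR had 595 PDCD4 cDNAs and 632 IgG cDNAs. KRT14 was at the low end, with 3 PDCD4 cDNAs and no IgG site. Of 6 markers of other cell types (PTPRC, CD3E, HBB, ALB, PECAM1 and ESR1), 1 had a PDCD4 site, with 2 cDNAs, and none an IgG site. The 30 nt after a site occurred more than once in the genome for 12 PDCD4 sites (0.982%) and 1 IgG site (0.211%).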

How the data were processed

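Crosslink sites of PDCD4 and IgG iCLIP from MCF10A cells were analysed, 2 samples per antibody, pooled by the authors into 1 list each. Reads were processed by the authors in iCount, with the annotation of Ensembl release 88 (GRCh38). They removed crosslink positions seen with IgG from each PDCD4 sample ahead of peak finding, and deposited, per 1-nt site, a raw cDNA count as the score. Some positions are still in both lists, and without them 158201 PDCD4 and 110640 IgG sites remain. The iCount version and the alignment settings are not given in the sources used here. The methods' filter on scores greater than 5 is not applied in the deposited lists and was used only as an alternative. The lists total 409308 (PDCD4) and 276139 (IgG) cDNAs, which limits the precision of single introns to a few cDNAs, and intervals cover counting error only, since PCR-derived cDNAs and nearby sites are not independent.

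Sites were assigned by strand and gene label to the GENCODE release 44 transcript with the longest coding sequence (ties by Ensembl canonical status, then identifier). Of 14416 labelled genes, 14266 were in this annotation, 11920 had a coding sequence and 6444 an intron under 300 nt. No position lay beyond a chromosome end. Where 2 genes gave a short intron, the shorter intron and then the lower identifier was used. Shares have exact (Clopper-Pearson) 95% intervals, log2 ratios intervals from both counts, and medians order-statistic intervals. The floor for a fold against 0 was 3 cDNAs over the list, an assumed value that gives no lower limit of the fold.

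Named genes were the 15 with the most PDCD4 cDNAs and the 6 with the most IgG cDNAs in the set, named introns the first 10 and the first 4, and up to 3 genes per family. The members and lists were chosen with earlier results of these data known. Alternatives were other score minimums, length limits, transcripts and counting units, and sites or genes left out. 1 item of the marker list is not reported here. Site assignment was tested on simulated data. Python 3.11.15, numpy 2.4.6, pandas 2.3.3, scipy 1.17.1 and pysam 0.24.0 were used.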

Additional observations from a re-analysis of the deposited data

How the results depend on the processing

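The PDCD4 share stayed above the IgG share under all alternatives run, and no log2 ratio turned its sign. With scores greater than 5 only 32 PDCD4 and 8 IgG sites remained, the shares were 1.36% and 1.04%, the log2 ratio 0.38 with an interval from -0.73 to 1.50, the retained-intron shares 53.1% and 25%, and the PDCD4 median GC content 63.3%. Introns under 150 nt gave shares of 0.246% and 0.130% and GC medians of 62.9% and 59.8%, and introns under 500 nt gave 1.58% and 0.944%, with 58.1% and 54.5%. Leaving out sites in any annotated exon from the lists as well as from the set, so that shares are of 78993 PDCD4 and 73600 IgG sites, gave a PDCD4 share of 0.846% and a log2 ratio of 1.12, against 0.71 for the same sites over the full lists, and the retained-intron shares are then 0 by construction and were not computed. Summed scores gave shares of 0.879% and 0.470% and a PDCD4 GC median of 60.4%. Without the 10 genes with most sites the PDCD4 share was 0.701%. Over intronic sites the shares were 1.51% and 0.653% and the log2 ratio 1.21. Counting only retained-intron exons that span the whole intron gave 35.3% for PDCD4. All other values stayed within the intervals given in the text, among them the alternatives chosen after seeing the data, which left out SYT8, introns that hold a small RNA, or the last intron nucleotide. No paired analysis was possible because each list pools its replicates. The number of cDNAs limits what single introns can show, since most had 1 site of a few cDNAs, and the depth per replicate is unknown.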
